A study of Rattus norvegicus with 30 samples.

Results

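The Nr4a genes Nr4a1, Nr4a2 and Nr4a3 encode the orphan nuclear receptors known as Nur77, Nurr1 and Nor1. Their 7 probe sets, among 8740 that are not array controls, are all those annotated to exactly 1 of these 3 gene symbols. Nr4a1 has 2, Nr4a2 has 2 and Nr4a3 has 3, and the genes are 3 of 3702 that could be tested. The genes were picked because their signal after kainate was above control early and, for some, below control at 24 h. The differences between kainate and control at all 5 times therefore chose the members, and they are given here as a description without a test.

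Total RNA of rat hippocampus was measured on 30 Affymetrix arrays. The labels describe rats given kainate, which activates glutamate receptors and provokes seizures, or phosphate-buffered saline (PBS) as the control, with tissue taken at 1, 6, 24, 72 or 240 h. Each of the 10 groups, kainate and PBS at each time, holds 3 arrays. Strain, sex, age, dose, route and whether RNA of several animals was pooled are not named by the labels, and neither is the origin of the replicates beyond a number, so the p-values measure only the spread between arrays, which may be partly technical. Transcripts of neurons were present on the 15 PBS arrays. The synaptic protein gene Snap25 had a median signal of 1437 and the transcription factor gene Neurod1 249.5. Medians of the 6 measured excitatory neuron markers, Neurod1 among them, ran from 62.7 (the kinase gene Camk2a) to 1646 (the calcineurin subunit Ppp3ca). Transthyretin, Ttr, a marker of the neighbouring choroid plexus, ranged from 104 to 3894 on the same arrays.

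Nr4a receptors are transcription factors without a known physiological ligand, so that their activity is set mainly by how much of the protein is made and by its modification. They bind DNA as monomers at the NBRE element, as dimers, and, for Nr4a1 and Nr4a2, together with retinoid X receptors. In neurons they belong to the immediate early genes: calcium entry and cyclic AMP act through CREB, MEF2 and SRF to switch them on within minutes to hours, without the need for new protein. In the hippocampus they are known for their part in long-term memory, and Nr4a2 also for the identity of dopamine neurons in the midbrain.

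The promoters are shown because the genes were chosen for a signal above control early after kainate, and CREB and AP-1 are regulators of such genes. Of the 3 members 2 matched an entry in RefSeq's promoter table (build GRCr8), Nr4a1 and Nr4a2, and Nr4a3 did not. Each sequence runs 5′ to 3′ from 250 bases before to 50 after a transcript start. Capitals mark every match, on either strand, to the CRE full site TGACGTCA, its core CGTCA, the site TGCGTCA (which contains that core and resembles both AP-1 and CRE sites), the AP-1 site TGANTCA, the NBRE AAAGGTCA, and the CArG box that binds SRF. The site TGCGTCA was added after the Nr4a1 sequence had been seen.
Nr4a1 (chr7:134259888-134260187, plus strand): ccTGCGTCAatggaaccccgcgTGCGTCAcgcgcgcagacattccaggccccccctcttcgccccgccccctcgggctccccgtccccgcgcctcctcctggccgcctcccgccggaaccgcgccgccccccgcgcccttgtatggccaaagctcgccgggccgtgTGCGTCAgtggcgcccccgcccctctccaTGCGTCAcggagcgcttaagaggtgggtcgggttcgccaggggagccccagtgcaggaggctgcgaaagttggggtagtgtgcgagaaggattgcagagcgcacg
Nr4a2 (chr3:62104838-62105137, minus strand): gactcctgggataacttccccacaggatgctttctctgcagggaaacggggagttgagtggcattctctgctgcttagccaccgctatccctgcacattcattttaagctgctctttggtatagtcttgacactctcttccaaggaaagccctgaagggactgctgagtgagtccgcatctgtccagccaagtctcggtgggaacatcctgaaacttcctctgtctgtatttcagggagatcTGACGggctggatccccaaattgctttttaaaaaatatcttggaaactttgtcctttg

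The Nr4a1 window held TGCGTCA 4 times on the plus strand, starting at positions -248, -228, -84 and -55 from the transcript start. Of 33469 promoters of the same length 1.90% held this site at least once, and Nr4a1 was the 1 promoter with 3 or more. Because the site was picked after this sequence had been seen, nothing is read from that rank. The core CGTCA occurred in 21.2% of promoters at least once and in 0.236% at least 4 times. The Nr4a2 window held 1 CGTCA, on its minus strand, at position -8. Neither window held the full CRE (present in 1.83% of promoters), the AP-1 site (7.33%), the NBRE (1.43%) or the CArG box (1.64%), which says nothing of sites outside these windows. Both gene records extend upstream of the start used here (Nr4a1 on chromosome 7 from 134247153 to 134268044, Nr4a2 on chromosome 3 from 62098739 to 62115926), so other starts exist. Nr4a3 lies on chromosome 5 from 67157141 to 67198287. A match is a run of letters, and binding was not measured.

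Of the 7 probe sets 6 lay above a signal of 35.2, the 40th percentile of all values, on at least 3 of 30 arrays, which is the filter used for all tests. They are described by signal intensity, a linear scale of the array, and by the log2 change, kainate minus PBS of the same time. The SE comes from a limma model over all 6303 probe sets that passed the filter. Levels of different probe sets are not comparable with each other. The third Nr4a3 probe set, rc_AI145834_at, ranged from 2.75 to 19.0 on the PBS arrays and reached 44.8 on 1 kainate array. It was near or below the floor of 10.95 set for low values and is not used further.

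**Figure D1:**
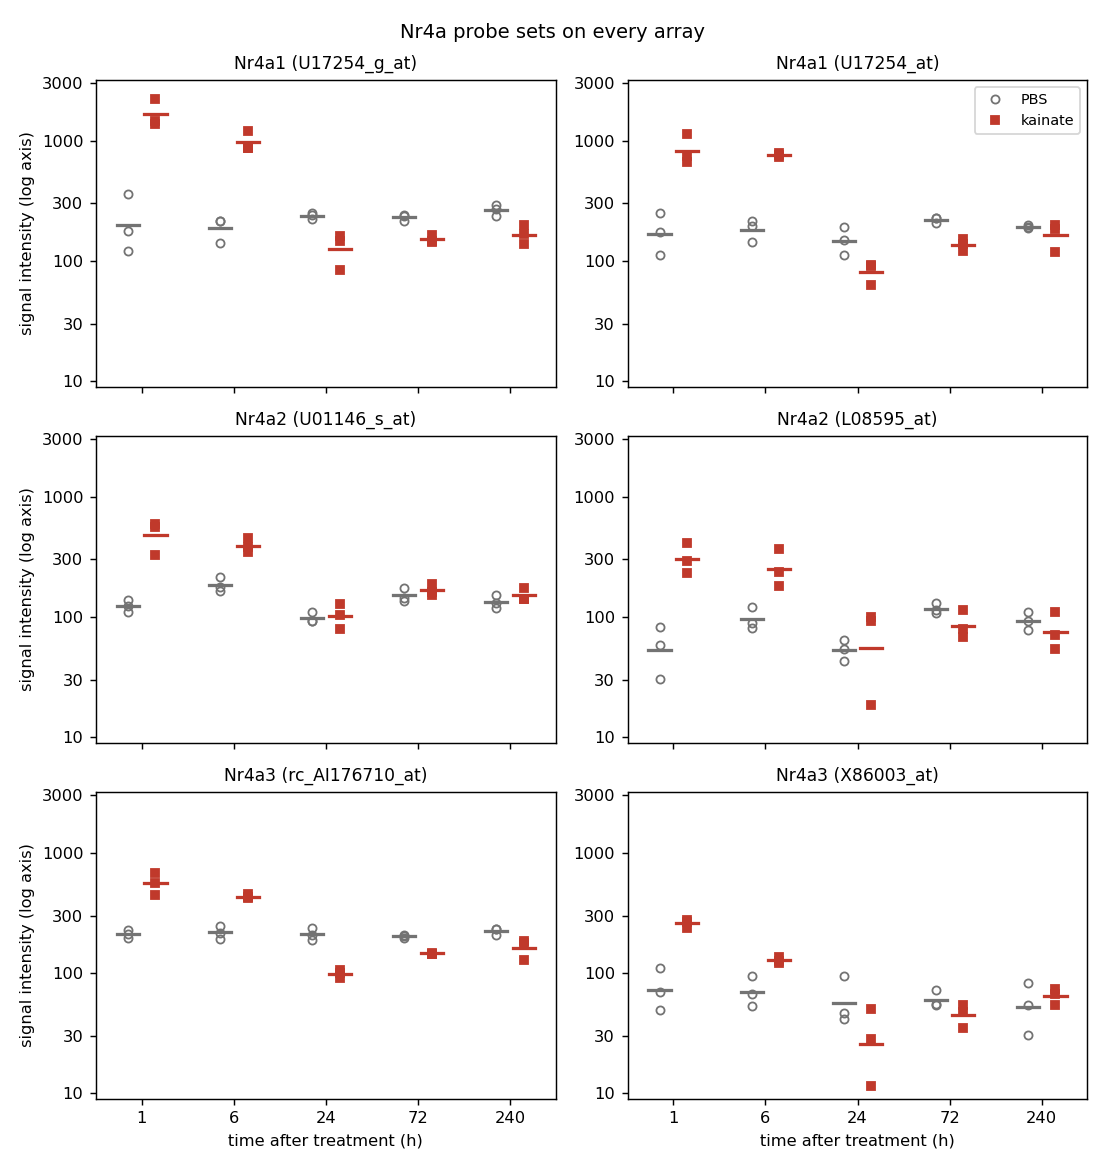
Signal intensity (log axis) of the 6 tested Nr4a probe sets on every array against time after treatment in h, with PBS arrays as open circles, kainate arrays as filled squares and the geometric mean of each group of 3 as a bar. All kainate arrays of 1 and 6 h lie above the PBS arrays of their time, and at 24 and 72 h those of Nr4a1 lie below.

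Nr4a1, whose probe set of highest mean had a larger early change than those of Nr4a2 and Nr4a3, had control signals of 122, 360 and 176 at 1 h on that probe set, U17254_g_at. The kainate arrays of 1 h read 1378, 1458 and 2221. The groups did not overlap, and the log2 change was 3.06 ± 0.27 (SE, n = 3 arrays per group), or 8.34-fold. At 6 h the controls read 214, 141 and 215 and the kainate arrays 871, 868 and 1190. The log2 change was then 2.37 ± 0.27, or 5.18-fold, and every kainate array of 1 h was above every kainate array of 6 h.

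Later the order of the groups was turned round. At 24 h the U17254_g_at signal was 239.9, 249 and 224 in controls and 161, 147 and 83.5 after kainate, so that all 3 kainate arrays were below all 3 controls (log2 change -0.92 ± 0.27 SE, or -0.62 without kainate replicate 3). At 72 h the controls read 240.2, 216 and 235 and the kainate arrays 145, 145 and 164, again without overlap (-0.61 ± 0.27). At 240 h they read 290.1, 236 and 272 against 198, 167 and 138 (-0.68 ± 0.27), the third time point at which all kainate arrays were the lower ones. In the order of U17254_g_at levels after kainate 1 h came first and 6 h second, and the ranges of 24, 72 and 240 h overlapped each other.

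The second Nr4a1 probe set, U17254_at, was built on the same GenBank sequence and is no independent measurement. It was 4.86-fold higher at 1 h and 4.15-fold at 6 h, and its log2 change was -0.88 ± 0.25 at 24 h and -0.69 ± 0.25 at 72 h (SE, n = 3 per group), each time without overlap. Its kainate ranges of 1 and 6 h overlapped (658 to 1125 and 726 to 783). At 240 h it also departed from its partner: the kainate arrays read 197, 185 and 118 and overlapped controls of 191, 189 and 197 (-0.24 ± 0.25).

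Nr4a2 was also higher early, without a later level below control that held on both of its probe sets. On U01146_s_at the controls of 1 h read 123, 139 and 109 and the kainate arrays 596, 329 and 562, a log2 change of 1.96 ± 0.20 (SE, n = 3 per group) or 3.89-fold. Kainate replicate 2 of 1 h was the lowest of its group yet above all controls. At 6 h controls of 163, 178 and 213 stood against 449, 344 and 378 after kainate (1.08 ± 0.20, or 2.11-fold).

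At 24 h the Nr4a2 groups overlapped on U01146_s_at, with 91.7, 109 and 92.2 in controls and 104, 79.6 and 127 after kainate (log2 change 0.06 ± 0.20). They overlapped at 72 h (0.14 ± 0.20) and 240 h (0.19 ± 0.20) as well. The other probe set, L08595_at, was 5.74-fold higher at 1 h (log2 change 2.52, above the 2.28 of U17254_at of Nr4a1) and 2.61-fold at 6 h, and overlapped at 24, 72 and 240 h, with log2 changes of -0.46 ± 0.43 and -0.30 ± 0.43 at the last 2 of these times, opposite in sign to U01146_s_at. Its 24 h value rested on 1 array: kainate replicate 2 read 18.4 where the others read 99.4 and 92.6, and the log2 change of 0.06 ± 0.43 became 0.86 without it.

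Nr4a3 was higher by less than the other members at 1 h on its probe set with the highest mean, and was the furthest below control at 24 h. On rc_AI176710_at the controls of 1 h read 196, 226 and 209 and the kainate arrays 678, 559.8 and 447 (log2 change 1.40 ± 0.15 SE, n = 3 per group, or 2.63-fold). At 6 h the controls read 246, 215 and 193 and the kainate arrays 425, 419 and 449 (0.99 ± 0.15, or 1.98-fold). Both times the groups were apart, and the kainate ranges of 1 and 6 h met at 447 and 449.

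At 24 h the same Nr4a3 probe set read 208, 189 and 238 in controls and 106, 90.4 and 99.5 after kainate, a log2 change of -1.10 ± 0.15 or 2.14-fold lower. At 72 h the kainate arrays read 148, 145 and 143, all below controls of 197, 203 and 206 (-0.48 ± 0.15). At 240 h they read 127, 186 and 179 against 232, 231 and 206 (-0.46 ± 0.15). All 9 kainate arrays of 24, 72 and 240 h thus lay below the lowest control of their time, as on U17254_g_at of Nr4a1.

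The other tested Nr4a3 probe set, X86003_at, was 3.62-fold higher at 1 h and 1.83-fold at 6 h. At 24 h its log2 change was -1.15 ± 0.40 (SE), but with 50.5, 28.3 and 11.6 after kainate and 41.1, 46.7 and 94.4 in controls the groups overlapped. Without kainate replicate 3 of 24 h, the array at 11.6, the change was -0.58. At 72 h the groups were apart (-0.43 ± 0.40) and at 240 h they overlapped (0.32 ± 0.40), so the 240 h value of the first probe set was not matched by the second.

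**Figure D2:**
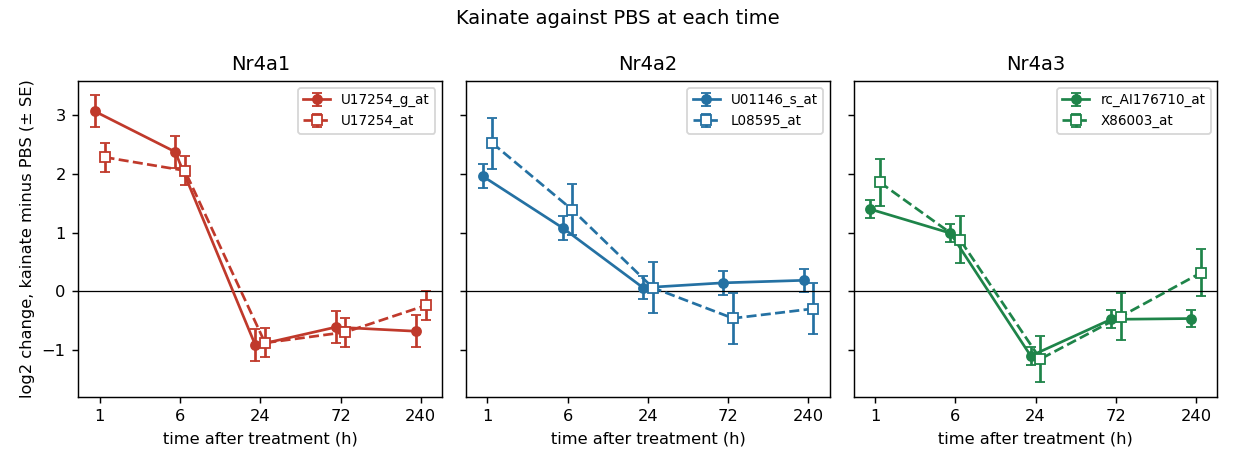
The log2 change, kainate minus PBS, with its SE at each time for both tested probe sets of Nr4a1, Nr4a2 and Nr4a3 (n = 3 arrays per group). At 24 h both probe sets of Nr4a1 and of Nr4a3 are below 0, between -0.88 and -1.15, and those of Nr4a2 are at 0.06.

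At 1 h 6 of the 6 tested probe sets had all kainate arrays above all controls, where 4.78% of all tested probe sets did, and at 6 h again 6 of 6, where 9.69% did. At 24 h 3 of 6 had all kainate arrays below all controls, where 15.7% of all tested probe sets did. The other 3 overlapped. At 72 h it was 4 of 6, against 12.1%, and at 240 h 2 of 6, against 4.90%. The members were chosen on these contrasts, so nothing is read from those counts.

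The control levels the changes are measured against were not flat. The arrays of 6 and 72 h differed from those of 1, 24 and 240 h in the 3′ to 5′ log2 ratio of beta-actin, a sign of RNA quality: 0.44 ± 0.10 (SD) on 12 arrays and 0.68 ± 0.15 on 18. In the same order the ratio of hexokinase was 0.97 ± 0.24 and 1.40 ± 0.32, and that of GAPDH -0.07 ± 0.06 and 0.01 ± 0.13. That division of the arrays came from earlier results of these data, and the labels name no batch. Nr4a2 followed this division, with U01146_s_at at 168 ± 27.5 on the 6 PBS arrays of 6 and 72 h and 119 ± 20.7 (SD) on the other 9. Nr4a3 did not, with rc_AI176710_at at 210.0 ± 19.2 and 215 ± 17.3. Each kainate group is set against controls of its own time, which lie on the same side of this division.

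One control array bears on the 1 h values. PBS replicate 2 of 1 h was the highest of its group on 6 of the 6 tested Nr4a probe sets, as it was on 39.8% of all tested probe sets. The same array had the highest control signal of Fos (446, beside 252 and 228), a subunit of the AP-1 factor, and of Arc (588, beside 393 and 403), a synaptic immediate early gene. Without it the 1 h log2 change was 3.49 for U17254_g_at, 2.05 for U01146_s_at, 2.84 for L08595_at and 2.16 for X86003_at, each larger than with it. The beta-actin ratio at 1 h was 0.53 ± 0.21 (SD, n = 3) in controls and 0.80 ± 0.12 after kainate. The same ratio of GAPDH was 0.08 ± 0.04 in controls and 0.10 ± 0.20 after kainate, and that of hexokinase 1.41 ± 0.23 and 1.63 ± 0.27. The part of RNA quality in the 1 h values was not tested.

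Markers of cell types moved beside the early and the later values. At 1 h the summed signal of 6 general neuron markers was 7391 to 7665 in controls and 8057 to 8554 after kainate. At 6 h it was 7310 to 7932 and 8055 to 8390, although no single one of these markers passed at either time. Sums of the 6 measured excitatory neuron markers overlapped at 1 h (2685 to 3142 and 2555 to 3054) and at 6 h (2581 to 2837 and 2418 to 2907). Their median log2 change was -0.21 and -0.07 at these times. At 6 h 2 of 4 measured microglia and macrophage markers rose (limma, adjusted p under 0.05), where 3.24% of all tested probe sets did. The sums of all 4 were 135 to 205 in controls and 253 to 349 after kainate. The 3.24% is no fair background, because Cd74 and Lgals3 among the 4 were tested only through kainate arrays. Of the excitatory neuron markers 3 of 6 measured fell at 24 h (limma, adjusted p under 0.05), where 6.30% of all tested probe sets did. Their summed signal was 2775 to 2959 in controls and 1467 to 1726 after kainate. Of the general neuron markers 2 of 6 fell (7551 to 8069 and 6321 to 7232). Of the microglia and macrophage markers 3 of 4 rose, where 5.03% of all tested probe sets did, with sums of 178 to 235 and 738 to 960. That share is no fair background, because Cd74 and Lgals3 were tested only through kainate arrays. Of the astrocyte markers 2 of 6 fell, with sums of 7503 to 7918 in controls and 6135 to 6838 after kainate. Of the oligodendrocyte markers 0 of 5 passed, but their sums were lower after kainate without overlap (7414 to 7588 and 5998 to 6522). Those oligodendrocyte sums were also apart at 6 h (6892 to 7081 and 6224 to 6799). At 72 h the sums did not overlap for excitatory neuron markers (3033 to 3228 and 2408 to 2871) or microglia markers (165 to 186 and 255 to 339), and did for general neuron markers (7421 to 7777 and 7199 to 7433). At 240 h the excitatory sums overlapped (2602 to 2993 and 2323 to 2929), and the general neuron sums were lower after kainate without overlap (7924 to 8083 and 6989 to 7637). In whole hippocampus, fewer cells of a type and less RNA per cell cannot be told apart, and the part of these shifts in the Nr4a values was not tested. The beta-actin ratio at 24 h was 0.69 ± 0.08 (SD, n = 3) in controls and 0.79 ± 0.14 after kainate. That of GAPDH was -0.09 ± 0.23 in controls and 0.05 ± 0.03 after kainate, and that of hexokinase 1.53 ± 0.67 and 1.27 ± 0.19.

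The rest of the nuclear receptor family was compared by counts of calls, and no test set it against other genes. Of 45 receptors listed, 21 were measured, and none passed at 1 h (limma, 0 higher and 0 lower, with 0 and 1 at an unadjusted p under 0.05), a time at which 1.09% of all tested probe sets passed. Their log2 changes at 1 h ran from -0.53 to 0.44 around a median of -0.04, which was also the median of all tested probe sets. At 6 h the median was -0.25, beside -0.11 for all, and Rxrg alone passed, where 3.93% of all did and 0.698% as lower. Rxrg, the gamma form of the retinoid X receptor, a partner of Nr4a1 and Nr4a2, fell by 0.86 on the log2 scale (± 0.15 SE, limma adjusted p = 0.000382), from 296 ± 44.1 (SD, n = 3). Only 1 of its 2 tested probe sets passed, and the mean of both did not (adjusted p = 0.663).

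At 24 h 11.3% of all tested probe sets passed and 1 of these 21 receptors did. Nr1d2, also named Rev-erb beta, a repressor of the circadian clock, rose 1.79-fold (log2 change 0.84 ± 0.24 SE, limma adjusted p = 0.0215). The call was lost without PBS replicate 2 or 3 or kainate replicate 1 or 3 of 24 h, with adjusted p up to 0.121. The family median at 24 h was -0.31, beside -0.05 for all tested probe sets. At 72 and 240 h 0 of 21 passed, with 0 and 1 at an unadjusted p under 0.05, where 0.0476% of all passed at each time.

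**Figure D3:**
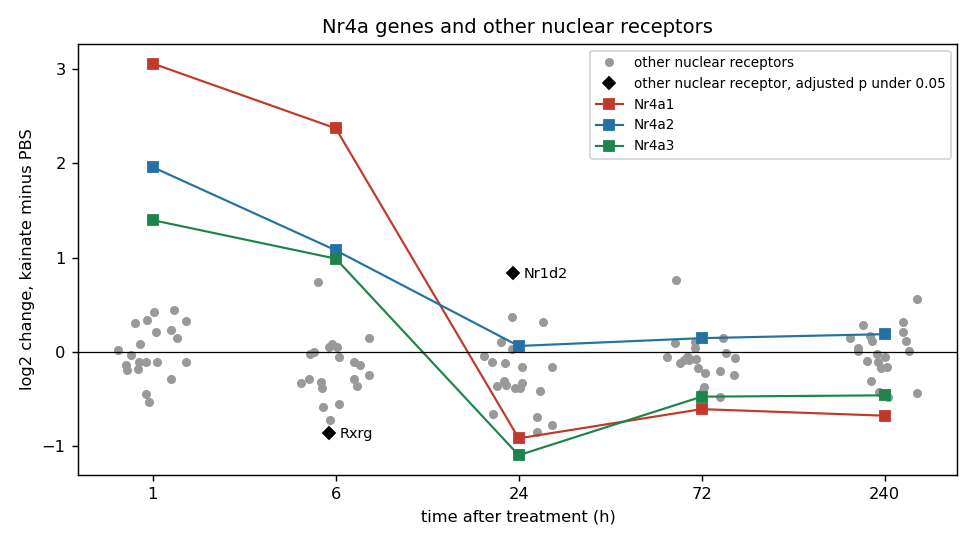
The log2 change, kainate minus PBS, of 21 other nuclear receptors (grey, black diamonds where the limma adjusted p is under 0.05) and of the 3 Nr4a genes by the probe set with the highest mean (coloured lines), against time after treatment. At 1 h the other receptors lie between -0.53 and 0.44 and the Nr4a genes between 1.40 and 3.06, the contrast on which they were chosen.

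Of 34 kinases and transcription factors known to act upstream of Nr4a genes, 21 were measured. At 1 h 0 passed (limma, with 2 higher and 1 lower at an unadjusted p under 0.05), where 1.09% of all tested probe sets did. At 6 h 1 rose, where 3.24% of all did: Crem, which encodes activators of the CREB family and the early repressor ICER, 2.43-fold (log2 change 1.28 ± 0.23 SE, limma adjusted p = 0.000509). Crem is also on the list of immediate early factors given below and is counted there again. At 24 h 3 fell, where 6.30% of all did, and 0 rose. These were Ppp3ca, which fell by 0.98 ± 0.12 on the log2 scale (limma adjusted p = 3.36e-06), the calcium/calmodulin kinase Camk2a by 1.89 ± 0.32 (adjusted p = 0.000239) and its relative Camkk1 by 0.60 ± 0.13 (adjusted p = 0.0037). The Camkk1 call was lost in a fit to only the 6 arrays of 24 h (adjusted p = 0.0913). Without kainate replicate 3 of 24 h 5 fell. Of Camk2a only 1 of 2 tested probe sets passed, and the mean of both did not (adjusted p = 0.103). Ppp3ca and Camk2a are also on the excitatory neuron list whose summed level was lower at this time. At 72 and 240 h 0 passed, with 4 and 3 at an unadjusted p under 0.05 when both directions are counted.

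Of 20 binding partners and coregulators only 5 were measured. Rxrg passed as lower at 6 h on 1 of 2 probe sets and not on their mean, where 0.698% of all tested probe sets fell. Bcl2, a survival protein that Nr4a1 can bind at mitochondria, passed as lower at 24 h, where 6.30% fell (log2 change -0.66 ± 0.21 SE, limma adjusted p = 0.0397). That call was lost without PBS replicate 1 or 3 or kainate replicate 2 or 3 of 24 h (adjusted p up to 0.172) and with quantile normalization (adjusted p = 0.0692). None passed at 1, 72 or 240 h, with 1, 0 and 1 at an unadjusted p under 0.05.

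Of 21 genes described as Nr4a targets in other tissues, 14 were measured. At 1 and 6 h 2 of them rose, where 0.904% and 3.24% of all tested probe sets did. Bdnf, a neurotrophin, was 2.21-fold higher at 1 h (log2 change 1.14 ± 0.17 SE, limma adjusted p = 0.000125) and 8.27-fold higher at 6 h (3.05 ± 0.17, adjusted p = 4.39e-13). Among 7 Bdnf probe sets, 2 passed the first of these comparisons and 5 the second, and the mean of all 7 did not pass at 1 h (adjusted p = 0.125). Crh, the stress peptide corticotropin-releasing hormone, rose 2.27-fold at 1 h (adjusted p = 0.0477) and 2.34-fold at 6 h (adjusted p = 0.013). The 1 h call of Crh was lost without PBS replicate 1 or 2 or kainate replicate 2 or 3 (adjusted p up to 0.316), and the 6 h call without PBS replicate 3 or kainate replicate 1 (up to 0.0916). Crh reached the filter only with its kainate arrays, so the shares of 0.904% and 3.24% are no fair background for it.

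At 24 h 2 of these 14 genes rose and 1 fell, where 5.03% of all tested probe sets rose and 6.30% fell. Spp1, osteopontin, a secreted protein also made by activated microglia, was 8.35-fold higher (log2 change 3.06 ± 0.38 SE, limma adjusted p = 3.49e-06). For it 1 control of 3 lay at the floor. No Spp1 control of any time reached the filter level, so Spp1 was tested only through kainate arrays. The share of 5.03% is therefore no fair background for its call. Bdnf was still 1.81-fold higher (adjusted p = 0.00165; the mean of its probe sets, 0.147). Nrp1, the semaphorin receptor neuropilin, fell by 0.71 ± 0.21 (adjusted p = 0.0273), a call lost without PBS replicate 1 or 3 or kainate replicate 1 or 3 (up to 0.143). The list median was 0.32, -0.09 and 0.21 at 1, 6 and 24 h, beside -0.04, -0.11 and -0.05 for all tested probe sets. At 72 and 240 h 0 passed, with 0 and 2 at an unadjusted p under 0.05. Th, tyrosine hydroxylase, and Slc6a3, the dopamine transporter, textbook targets of Nr4a2 in the midbrain, passed at none of the 5 times. The tissue here was hippocampus, so nothing about Nr4a2 activity is read from this.

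Of 22 immediate early transcription factors outside the family, 18 were measured. At 1 h 7 rose, where 0.904% of all tested probe sets did, and 0 fell, with a median log2 change of 0.77. At 6 h 12 rose, where 3.24% did, and 0 fell, with a median of 1.23. Among them Fosl1 and Egr3 were tested only through kainate arrays, so that share is no fair background for these genes. The largest at 1 h was the zinc finger factor Egr2 (log2 change 3.35 ± 0.31 SE, limma adjusted p = 2.62e-08), followed by Junb (2.84 ± 0.38, adjusted p = 1.96e-05) and Fos (4.59-fold, adjusted p = 4.71e-09). At 6 h Junb stood at 2.99, Cebpb, a leucine zipper factor, at 2.56 and Fos at 2.55. At 24 h 0 rose and 2 fell, where 5.03% of all tested probe sets rose and 6.30% fell. These were Egr4, lower by 0.70 ± 0.20 (limma adjusted p = 0.0211), and Egr1, lower by 0.64 ± 0.15 (limma adjusted p = 0.00557). Of these 2 calls that of Egr4 was lost without PBS replicate 2 or 3 or kainate replicate 3 of 24 h (adjusted p up to 0.147), and with the mean of its 2 probe sets (0.163). At 72 and 240 h 0 passed, with 0 and 2 at an unadjusted p under 0.05.

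The genes most like each member were found by Pearson's r over the 30 arrays, on log2 values after the mean of the controls of the same time had been taken off. This is a description, since the arrays of 1 and 6 h dominate it and the members were chosen for those. Most like Nr4a1 were Arc (r = 0.96), Egr2 (0.96), Junb (0.93), Egr1 (0.93) and Fos (0.89). For Nr4a2 they were Egr2 (0.90), Klf4 (0.89), Arc (0.88), Fos (0.87) and Egr1 (0.85). For Nr4a3 they were Arc (0.92), Egr1 (0.92), Egr2 (0.89), Junb (0.87) and the kinase gene Pim3 (0.82). Between members r was 0.91 for Nr4a1 and Nr4a3, 0.85 for Nr4a1 and Nr4a2 and 0.77 for Nr4a2 and Nr4a3.

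Arc shows how far the likeness went. Its log2 change was 2.11 and 1.86 at the early times (1 and 6 h) and -0.70 and -0.41 at the next (24 and 72 h), the signs of Nr4a1 and Nr4a3. At 72 h Arc read 330, 414 and 414 after kainate and 525, 493 and 512 in controls. At 240 h it read 471, 563 and 476 against 485, 491 and 533, so the groups overlapped, while U17254_g_at of Nr4a1 and rc_AI176710_at of Nr4a3 were still below control on all 3 kainate arrays. Whether the genes differed at 240 h was not tested.

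**Figure D4:**
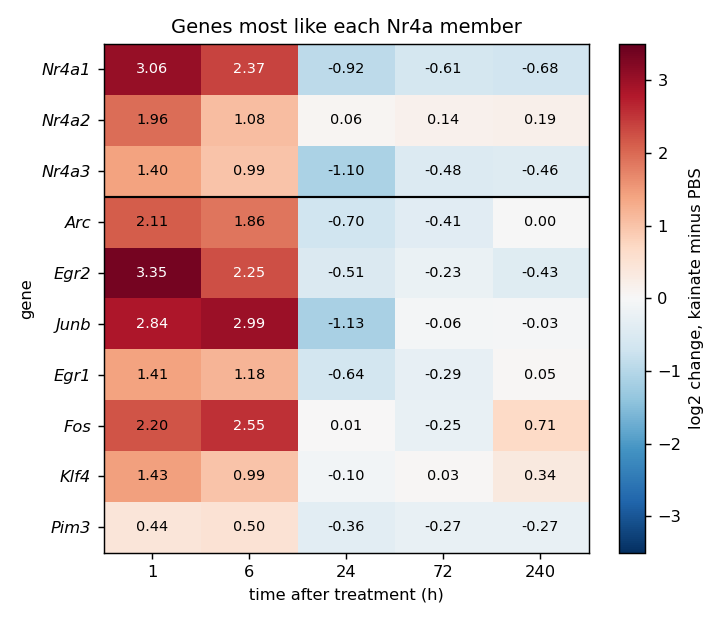
The log2 change, kainate minus PBS, at each time (columns, h) for the 3 Nr4a genes and the 7 genes most like them (rows), with the value in each cell and red for higher after kainate. Arc, Egr1, Egr2 and Junb share the early positive and the 24 h negative values of Nr4a1 and Nr4a3, whereas Klf4 and Fos are near 0 at 24 h (-0.10 and 0.01) as is Nr4a2 (0.06).

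Whether the Nr4a genes also varied together among arrays of the same group could be tested independently of how they were chosen, because the group means are taken off first. Over the 30 arrays Pearson's r was 0.01 between Nr4a1 and Nr4a2 (Spearman's rho -0.0016), -0.14 between Nr4a1 and Nr4a3 (rho -0.17) and 0.09 between Nr4a2 and Nr4a3 (rho 0.12). A two-sided permutation test within groups gave p = 0.954, 0.525 and 0.806 (for rho 0.996, 0.48 and 0.618), and 0.954, 0.907 and 0.907 for r after Benjamini-Hochberg adjustment over 9 relations. No shared variation beyond the group means was detectable with these arrays. It remained undetected within the arrays of 6 and 72 h (r = 0.05, 0.16 and -0.47) and within those of 1, 24 and 240 h (0.01, -0.19 and 0.21). On the kainate arrays alone r was -0.13, -0.47 and 0.21, and on the PBS arrays alone 0.22, 0.27 and -0.23. The signs were thus opposite for each pair, and none of these values passed. Without the 2 arrays farthest from the median on the x axis r was -0.10, -0.38 and 0.11.

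Of the 6 relations with Fos and Arc none passed by Pearson's r. That of Nr4a1 with Fos was r = 0.66 (permutation p = 0.0137, adjusted p = 0.0756), and its Spearman's rho of 0.62 passed (permutation p = 0.00234, adjusted p = 0.0211). It was 0.44 within the arrays of 6 and 72 h and 0.71 within those of 1, 24 and 240 h, and 0.46 without the 2 most distant arrays. It leaned on PBS replicate 2 of 1 h, without which r was 0.38 (adjusted p = 0.377). That of Nr4a2 with Fos was r = 0.48 and rho 0.46 (permutation p = 0.0168 and 0.034, adjusted p = 0.0756 and 0.153), 0.72 and 0.42 within the 2 sets of arrays, and 0.48 without the 2 most distant arrays. Without PBS replicate 2 or 3 of 240 h it passed (r = 0.56 and 0.58, adjusted p = 0.0372 and 0.0192).

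The remaining relations had r of 0.36 (Nr4a1 with Arc), 0.32 (Nr4a2 with Arc), -0.06 (Nr4a3 with Fos) and 0.07 (Nr4a3 with Arc). Their rho was 0.27, 0.34, -0.10 and 0.10. Their permutation p was 0.278, 0.0685, 0.775 and 0.74 for r, or 0.625, 0.205, 0.907 and 0.907 adjusted, and for rho 0.268, 0.101, 0.637 and 0.632, or 0.602, 0.302, 0.717 and 0.717 adjusted. Within the arrays of 6 and 72 h r was 0.09, 0.25, -0.33 and -0.52, and within those of 1, 24 and 240 h 0.57, 0.41, -0.01 and 0.35. Without the 2 most distant arrays r was 0.03, 0.35, 0.06 and 0.02. The value of Nr4a1 with Arc was 0.0094 without PBS replicate 2 of 1 h.

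**Figure D5:**
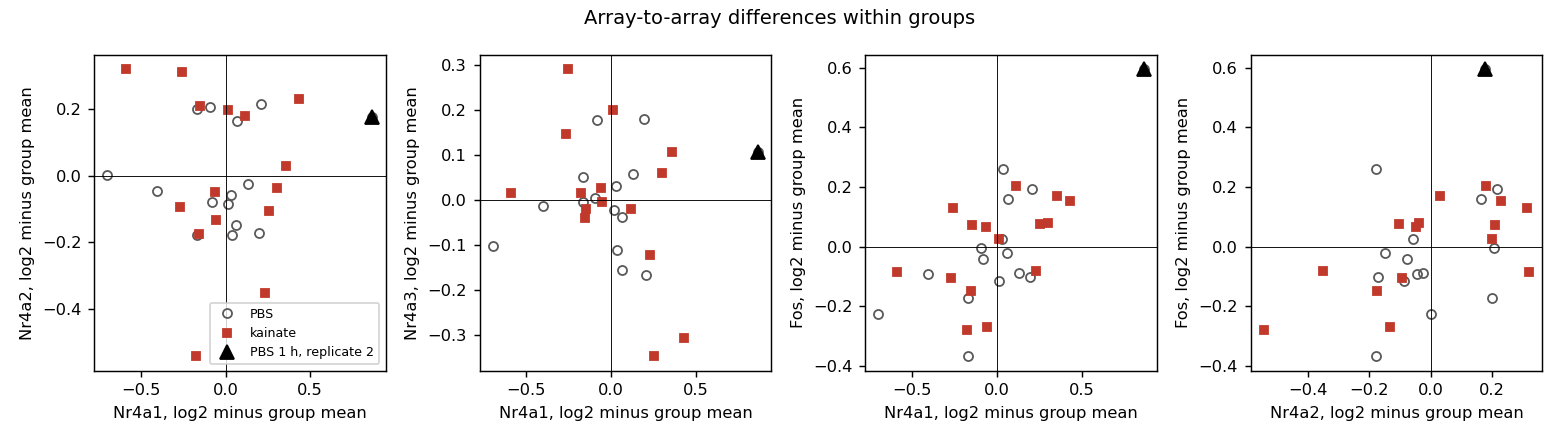
Log2 value minus the mean of the array's own group, 1 point per array (open circles PBS, red squares kainate, black triangle PBS replicate 2 of 1 h), for Nr4a1 against Nr4a2, Nr4a3 and Fos and for Nr4a2 against Fos. The points of the Nr4a pairs show no slope (r = 0.01 and -0.14), and in the plot of Nr4a1 against Fos (r = 0.66) the black triangle is the farthest point at the upper right.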

How the data were processed

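The values deposited by the authors are linear signal intensities of probe sets on 30 arrays, and the labels do not say how they were derived from the scans. The deposited arrays already shared a trimmed mean (150.1 to 150.2, 2% off each end). Precision depends on the number of arrays, since read depth does not apply.

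Arrays were brought to 1 trimmed mean, values were floored at the 20th percentile (10.95), turned into log2, and filtered at the 40th percentile (35.2) on at least 3 arrays, which left 6303 of 8740 probe sets that are not among the 59 array controls. Of those 8740, 7006 had 1 gene in the platform annotation, 308 several and 1426 none. A gene was represented by its probe set of highest mean log2 level. limma 3.58.1 in R 4.3.3 fitted a mean per group with an intensity trend (20 residual degrees of freedom) and Benjamini-Hochberg adjustment over all tested probe sets at 0.05. Permutation tests used 100000 resamples in Python 3.11.15. The scripts were tested on simulated data.

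The members and lists were chosen with earlier results of these data known. All member probe sets are described, from each list and time up to 3 passing genes with the largest change are named, and for each member the 5 most alike genes. Alternatives were quantile normalization, a floor at the 30th percentile, no filter, fits to fewer arrays, array weights, a replicate block, the mean of a gene's probe sets, and each array left out.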

Additional observations from a re-analysis of the deposited data

Results flagged for a closer look

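On 4 Nr4a probe sets every kainate array lay above its controls at 1 h and below them at a later time, and 2 of the 4 share a GenBank sequence. Of all 6303 tested probe sets 1.29% did so at 24, 72 or 240 h. The log2 change at the first such later time was -0.92 (U17254_g_at) and -0.88 (U17254_at) for Nr4a1 at 24 h, -1.10 (rc_AI176710_at) for Nr4a3 at 24 h and -0.43 (X86003_at) for Nr4a3 at 72 h. The difference between times was not tested for them, because these contrasts chose the genes, and nothing is read from the count.

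Of the 17 named genes around the family, 14 had an adjusted p under 0.05 in limma's F test of a difference in the kainate effect between the 5 times, as did 6.62% of all tested probe sets. The genes were named for a large change at 1 time, so the values are a description of them and no independent evidence. The adjusted p was 3.19e-09 for Fos, 7.91e-09 for Bdnf, 3.75e-08 for Egr1, 1.02e-07 for Egr2, 2.02e-07 for Cebpb and 2.63e-06 for Junb. It was 0.000308 for Ppp3ca, 0.000648 for Spp1, 0.00537 for Egr4 and 0.00714 for Crem. It was 0.0144 for Rxrg, 0.0157 for Camkk1, 0.0162 for Nr1d2 and 0.0451 for Bcl2.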

How the results depend on the processing

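Of 285 values of the members' log2 changes under other settings, 278 kept their sign, among them all 114 of 1 and 6 h. So did all 19 each of Nr4a1 and of Nr4a3 at 24 h, while Nr4a2 at 24 h kept it in 15 of 19. The replicate block could not change these values, because each group holds the same 3 replicate numbers. Values from that setting kept their sign by design. Quantile normalization moved member changes by at most 0.0927. The mean of all tested probe sets gave Nr4a3 1.63 at 1 h in place of 1.40. At 240 h that mean was -0.46 for Nr4a1 in place of -0.68 and -0.07 for Nr4a3 in place of -0.46. For Nr4a2 it turned the sign, to -0.16 in place of 0.14 at 72 h and to -0.05 in place of 0.19 at 240 h. Same-numbered arrays did not deviate together (correlation over 0.1 in 3 of 15 pairs, from -0.07 to 0.17), so the numbers are not taken as pairs. With the replicate block 68, 241, 672, 3 and 2 probe sets passed at 1, 6, 24, 72 and 240 h, in place of 69, 248, 714, 3 and 3, the described targets at 1 h were 1 in place of 2, and the other list counts stayed within 1.5 times.

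Counts over all probe sets depended on which arrays shared the spread; the cause was not tested. With only the 6 arrays of a time 31, 256, 0 and 0 passed at 1, 24, 72 and 240 h, and with only the arrays of 6 and 72 h or of 1, 24 and 240 h 43, 481, 343, 5 and 0 at 1, 6, 24, 72 and 240 h. Array weights gave 633 at 6 h and 153 at 72 h, and no filter 10 at 72 h and 13 at 240 h. Leaving out 1 array gave 51 to 96 at 1 h, 163 to 279 at 6 h (163 without kainate replicate 3), 336 to 715 at 24 h (336 without kainate replicate 3, 431 without PBS replicate 3), 0 to 1 at 72 h (each array left out) and 0 to 19 at 240 h (6 without PBS replicate 2, 19, 0 and 8 without kainate replicates 1, 2 and 3).

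For nuclear receptors at 6 h the count was 2 with the arrays of 6 and 72 h, 4 with array weights and 0 with the gene mean, in place of 1, and 1 to 2 with an array left out (2 without kainate replicate 2). At 24 h it was 0 with the 6 arrays of that time and 0 to 1 with an array left out. For upstream genes it was 1 at 1 h with the gene mean, 2 and 3 at 6 h with the arrays of 6 and 72 h and with array weights, 1 at 72 h with array weights, and 3 to 5 at 24 h with an array left out. For partners it was 2 at 6 h with the arrays of 6 and 72 h and with array weights, and 0 with the gene mean. At 24 h it was 0 with quantile normalization, the 6 arrays of that time, the arrays of 1, 24 and 240 h and array weights, and 0 to 1 with an array left out. For described targets at 1 h it was 1 with the higher floor, the arrays of 1, 24 and 240 h, array weights and the replicate block, 0 with the 6 arrays of that time and the gene mean, and 1 to 2 with an array left out. It was 1 to 2 at 6 h with an array left out and 1 at 24 h with the 6 arrays of that time. For immediate early factors it was 4 at 1 h and 1 at 24 h with the 6 arrays of that time, and 1 to 3 at 24 h with an array left out (1 without PBS replicate 2 or kainate replicate 3). The correlation of Nr4a2 with Fos was 0.38 to 0.58 with an array left out, and of all correlation values under other settings 340 stayed on their side of the threshold and these 2, without PBS replicate 2 or 3 of 240 h, passed it.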
